A study of Danio rerio with 2 samples.

Results

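The barcodes described here are sorted zebrafish neutrophils with an intermediate level of lyz, the lysozyme gene whose mRNA was among the most abundant in these cells. They were chosen from the library of sorted neutrophils by 4 conditions, namely at least 500 detected features, under 10% of unique molecular identifiers (UMIs) from mitochondrial genes, lyz from 3% to under 6% of all UMIs, and 0 UMIs of mmp9, mki67, top2a, mcm2, mcm3, mcm5 and mcm6. This rule found 1202 of the 17846 barcodes of that library, or 7.11% of the 16899 barcodes within the limits on features and mitochondrial UMIs, out of 28534 barcodes in the series. As lyz and the 7 excluded genes made the choice, their levels are a description of the choice and no result. They were compared with other barcodes of the same library, namely 2934 barcodes with lyz at 8% or more (lyz-rich) and 7155 with lyz under 2% (lyz-low), neither of which had to lack the 7 genes.

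Neutrophils mature in the kidney marrow of fish as they do in the bone marrow of mammals. Their granule proteins are made in waves, the early ones during the proliferative stages and those of later granules after division has ceased, and chemotaxis receptors and the transcription factor C/EBP-beta belong to the late stages in mammals. Lysozyme is a granule enzyme of the myeloid lineage, and Mmp9, a gelatinase, is stored in late granules in mammals.

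The study compared neutrophils of different Mmp9 levels in adult kidney marrow by droplet-based scRNA-seq. Both libraries came from the marrow of the same 2 male fish aged 6 months, which carried CFP-NTR driven by the lysC promoter, Tg(lysC:CFP-NTR)vi002, and membrane-directed Citrine under regulatory elements of mmp9 on a bacterial artificial chromosome, Tg(BACmmp9:Citrine-CAAX)vi003. The sorted library pooled 6 populations, which were live cells positive for CFP with no, intermediate or high Citrine from each fish. Cells were thus gated into it by the CFP signal of the lysC reporter. The whole kidney marrow (WKM) library pooled live cells of both fish without a reporter gate. Every cell analysed here, those of the comparison groups included, carried both transgenes, and barcodes were not assigned to a fish or to a Citrine gate here. The groups compared lie within 1 library, in which the cells of each fish had been tagged with MULTI-seq barcodes, but without an assignment of cells to a fish no test across animals was run, and differences have no replicate check. All intervals are at 95% and cover counting error only, not variation between cells or fish.

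Within the limits on features and mitochondrial UMIs, 16899 sorted barcodes had 58097220 UMIs in all and 8313 barcodes of WKM had 41793452. The intermediate barcodes held 3249642 UMIs, with a median of 2494 UMIs and 915 features per barcode, between the lyz-rich (6676 UMIs) and the lyz-low barcodes (1707 UMIs). Their median share of mitochondrial UMIs was 1.46%, compared with 1.02% in lyz-rich and 2.14% in lyz-low barcodes. Depth and mitochondrial share therefore moved with lyz. The comparison was repeated within a limited range of depth, as given below, while the part of the mitochondrial share in the differences was not tested. The 2 libraries shared 62 barcode sequences, 6 of them among the intermediate barcodes, of which 1 met the rule in both libraries. Scrublet, which scores barcodes for resemblance to simulated doublets, called 120 of the intermediate barcodes (9.98%), 358 lyz-rich (12.2%) and 660 lyz-low barcodes (9.22%). They were kept, since the rule does not remove doublets.

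**Figure D1:**
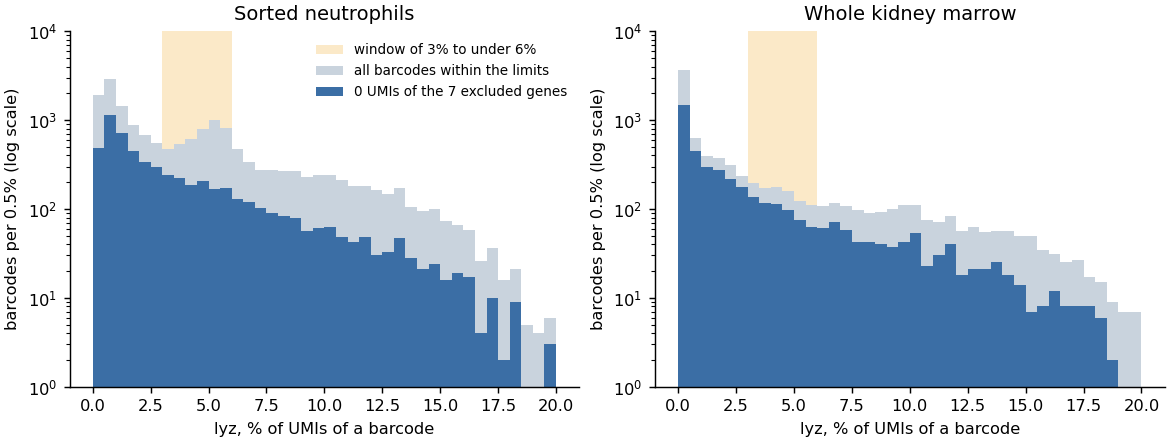
Number of barcodes (log scale) by the share of lyz in their UMIs, in steps of 0.5%, for the sorted library (left) and WKM (right). Grey bars hold all barcodes within the limits on features and mitochondrial UMIs, blue bars those with 0 UMIs of the 7 excluded genes, and the shaded band the window of 3% to under 6%. In the window the sorted library held 4228 barcodes and WKM 939, of which 1202 and 607 lacked UMIs of the 7 genes.

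The exclusion of the 7 genes removed most barcodes of the window. Of 4228 sorted barcodes with lyz from 3% to under 6%, 3026 (71.6%) had at least 1 such UMI, 2475 (58.5%) of mmp9 and 1829 (43.3%) of a cell cycle gene. Both kinds were found in 1278 barcodes, which are 42.2% of the excluded ones, at a median of 2341 UMIs. At the average composition of the sorted library (1025 CPM for the 7 genes together), a barcode of the median depth of the intermediate ones would hold 2.56 UMIs of them. In WKM 332 of 939 barcodes in the window (35.4%) had such a UMI, and mmp9 was seen in 108 (11.5%).

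The label was checked against neutrophil markers. Lect2l, a leukocyte chemotactic protein abundant in zebrafish neutrophils, stood at 51406 CPM (counts scaled to 1000000 UMIs of the group) in intermediate barcodes, 51661 in lyz-rich and 24639.9 in lyz-low barcodes. Srgn, the proteoglycan core of granules, stood at 13499.9 CPM in intermediate barcodes, and mpx, the myeloperoxidase gene, at 2738 CPM, compared with 2749.8 and 2603 CPM in lyz-rich and lyz-low barcodes. Mpx was taken up after its values had been seen. Of the lists of other cell types, T and NK cell markers were close to absent, with 10 of 11 genes at 0 UMIs and a sum of 1.23 CPM. The 12 erythroid features summed to 48.3 CPM, the 13 macrophage markers to 178.8 CPM, of which spi1a, also a myeloid transcription factor, made up 167, and the 8 B cell features to 120.9 CPM. At 0 UMIs in intermediate barcodes were 7 erythroid features, 8 macrophage markers and 6 B cell features. The largest sum was that of the 5 eosinophil or mast cell features, which include cpa5 and alox5ap. It came to 5237 CPM, compared with 6352 in lyz-rich and 2685 in lyz-low barcodes. The 8 kidney or endothelial features summed to 292 CPM, the 8 stem and progenitor cell features to 157.9 CPM and the 6 thrombocyte features to 2.46 CPM. In lyz-low barcodes the erythroid features summed to 956.8 CPM, but to 74.2 CPM in those without UMIs of the 7 genes. Their part in the comparison with lyz-low barcodes was not tested.

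CFPNTR, the transcript of the reporter that was used for sorting, was between the comparison groups as well. It stood at 67.4 CPM (58.8 to 76.9) in intermediate barcodes, 139 CPM in lyz-rich and 15.3 CPM in lyz-low barcodes. Citrine, the reporter of mmp9, had 2 UMIs in the intermediate barcodes (0.615 CPM, 0.0745 to 2.22) and 13.4 CPM in lyz-low barcodes, where mmp9 had not been excluded.

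As markers of these barcodes 4 genes had been given, namely ved (ENSDARG00000102389), a homeobox repressor known from ventral patterning of the zebrafish embryo, rgs12b (ENSDARG00000036774), a regulator of G-protein signaling, ptgdsb.1 (ENSDARG00000027088), a lipocalin-type prostaglandin D synthase, and gapdh (ENSDARG00000043457), a glycolytic enzyme. They were chosen on these cells, so their levels are a description. Ved stood at 118 CPM (106 to 129.95) in intermediate barcodes, 12.98 CPM (11.5 to 14.6) in lyz-rich and 80.3 CPM (75.7 to 85.1) in lyz-low barcodes, with log2 ratios of 3.18 (2.95 to 3.41) over lyz-rich and 0.55 (0.38 to 0.72) over lyz-low. Gapdh stood at 729 CPM, compared with 247 in lyz-rich and 514 in lyz-low barcodes (log2 ratios 1.56 and 0.50). The corresponding levels of ptgdsb.1 were 202, 42.4 and 185 CPM (log2 ratios 2.25 and 0.13). Those of rgs12b were 37.9, 14.6 and 47.4 CPM (log2 ratios 1.38 and -0.33). All 4 markers were called higher than in lyz-rich barcodes, as were 23% of all genes compared, and none over lyz-low barcodes (3.84% of all genes), where called means past 1.5-fold with an interval that leaves out 1.

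For ved and ptgdsb.1 the order of intermediate and lyz-low barcodes changed with the exclusion of the 7 genes. When lyz-low barcodes were held to the same exclusion (2807 barcodes), ved stood at 159 CPM and ptgdsb.1 at 294 CPM. Their log2 ratios thus turned to -0.43 and -0.54. Rgs12b, lower in intermediate barcodes in both forms of the comparison, stood at 67.9 CPM in these lyz-low barcodes (log2 ratio -0.84). The ratio of gapdh came to 0.14. Over the 747 lyz-rich barcodes held to the exclusion, the log2 ratios were 3.09 for ved, 1.51 for ptgdsb.1, 1.13 for gapdh and 0.94 for rgs12b. All 4 were thus called over lyz-rich barcodes in both forms of the comparison, while their highest levels lay in bands of lyz below the window. For gapdh the levels just below and just above the lower edge of the window were nearly equal, as given below. A lack of UMIs is a weaker condition in shallower barcodes. Under the exclusion the median depth was 1548 UMIs in lyz-low and 5089 in lyz-rich barcodes, compared with 2494 in intermediate ones. The part of this difference in the ratios under the exclusion, here and below, was not tested.

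**Figure D2:**
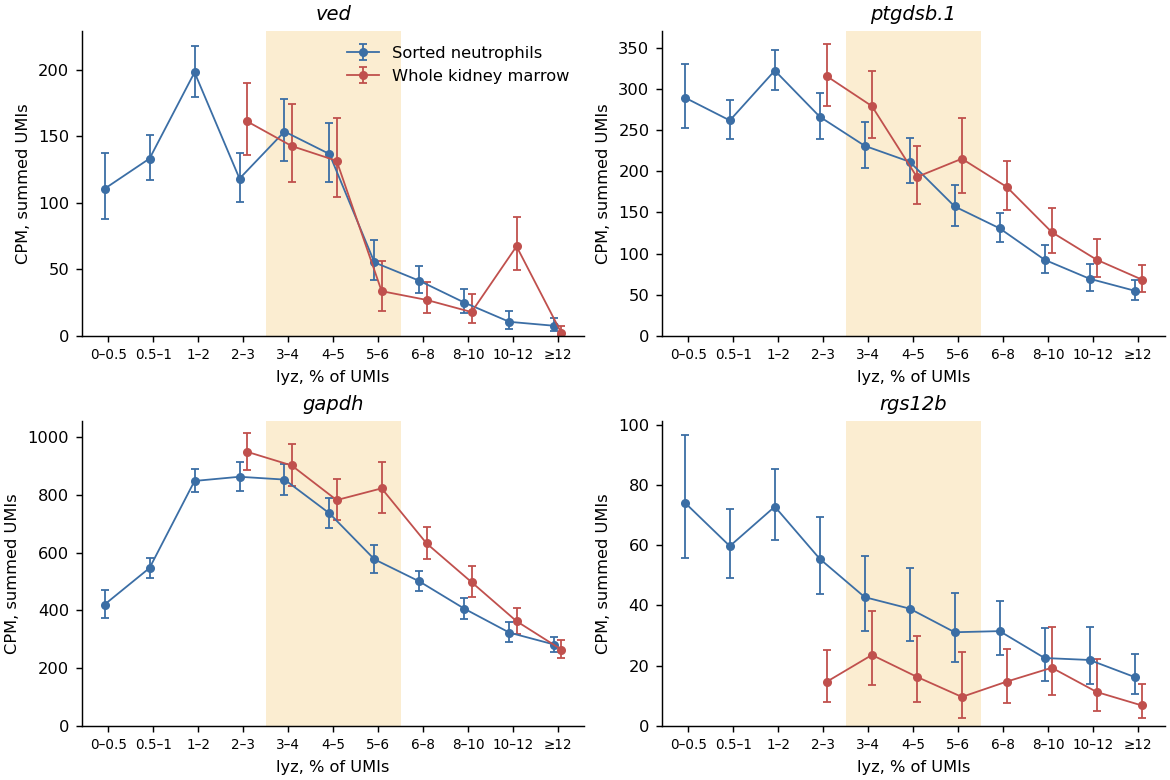
Levels of ved, ptgdsb.1, gapdh and rgs12b (CPM of summed UMIs, with exact Poisson intervals) in bands of lyz among barcodes with 0 UMIs of the 7 excluded genes, in the sorted library (blue) and WKM (red, shown from 2% lyz upward). The shaded bands are those of the window, the levels of all 4 genes in sorted barcodes fall from the band of 3% to 4% to that of 5% to 6%, and ved has its highest point, 198 CPM, at 1% to 2% lyz.

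Within the window the markers had lower levels at higher lyz. Ved stood at 154 CPM at 3% to under 4% lyz (465 barcodes), 137 CPM at 4% to under 5% (394 barcodes) and 55.1 CPM at 5% to under 6% (343 barcodes). For gapdh these levels were 854, 737 and 577 CPM. In the barcodes with 0.5% to under 1.5% of UMIs from hmgn2, described below, median lyz was 5.16%, against 4.11% in those with less. Ved stood there at 25.6 against 150 CPM, and gapdh at 482 against 844 CPM. The part of these barcodes in the levels by lyz was not tested. Just outside the window, 627 barcodes with lyz from 2% to under 3% had 118 CPM of ved and 864 CPM of gapdh, and 441 barcodes from 6% to under 8% had 41.3 and 501 CPM. Gapdh thus changed gradually across both edges, whereas ved was lower just below the window than at 3% to under 4% lyz and lower again from 5% on. Levels also differed with depth, since ved stood at 133 CPM in the shallowest 401 barcodes (median 1719 UMIs), 209 CPM in the middle 400 (2494 UMIs) and 53.8 CPM in the deepest 401 (3661 UMIs), whose median lyz was 4.18%, 4.19% and 4.62%. Among the intermediate barcodes 20 held 263 of the 382 ved UMIs, so that its levels by lyz and by depth rest on few barcodes. Counting intervals do not cover that spread.

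Ved was held by few barcodes. Of the 1202 intermediate barcodes, 101 (8.40%, 6.90 to 10.1) had a UMI of ved and 57 of them had only 1. Only 20 barcodes had 5 or more, and these held 263 of the 382 ved UMIs (68.8%), with up to 37 in a barcode. Of the lyz-low barcodes 561 (7.84%) had a UMI of ved. Among the 2807 lyz-low barcodes held to the exclusion these were 320 (11.4%, 10.2 to 12.6), and 38 had 5 or more. After each barcode was thinned to 1000 UMIs (14 shallower ones left out), ved was seen in 5.39% of intermediate barcodes, 1.02% of lyz-rich, 4.94% of lyz-low and 0.739% of the 812 globin-rich barcodes of WKM, which serve as background (median 7454 UMIs before thinning, and 2.34% with a UMI unthinned). The 20 barcodes with 5 or more UMIs had 1546 CPM of gapdh, compared with 716.2 CPM in barcodes without ved. They had 317.1 CPM of ptgdsb.1 (196.4 CPM in barcodes without ved) and 0 UMIs of mhc1uba, an MHC class I gene, where 3 counts would be 59.5 CPM. Barcodes without ved had 394.4 CPM of mhc1uba. All 20 had hmgn2 under 0.5% of UMIs, and the intermediate barcodes of that range had 279 CPM of mhc1uba. Mhc1uba was taken up after its values had been seen, and whether the 20 barcodes came from 1 fish or from both was not tested. In WKM 9 of 607 barcodes under the same rule had 5 or more UMIs of ved and held 111 of its 192 UMIs (57.8%). They too had 0 UMIs of mhc1uba, where 3 counts would be 148.3 CPM, against 186.4 CPM in those without ved. All 9 had hmgn2 under 0.5%, where WKM barcodes under the rule had 127.4 CPM of mhc1uba, so that 0 UMIs say little there.

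Most genes called against both comparison groups had levels between those of the groups. Of 8604 genes with at least 100 UMIs over the 3 groups, 1978 (23%) were called higher than in lyz-rich barcodes and 1045 (12.1%) lower. Against lyz-low barcodes 330 genes (3.84%) were called higher and 1419 (16.5%) lower. Of the 865 genes called against both groups, 743 (85.9%) lay between them. Of these, 613 (7.12% of genes compared) were higher than in lyz-rich and lower than in lyz-low barcodes, and 130 (1.51%) the opposite. With both comparison groups held to the exclusion of the 7 genes, these counts were 581 and 90. Only 340 of the 613 and 66 of the 130 were called in the same way again. The median log2 ratio over all genes was 0.20 over lyz-rich and -0.22 over lyz-low barcodes. With both comparison groups held to the exclusion these medians came to 0.27 and -0.29. Medians of lists below are to be read against those of the same comparison, and counts of called genes against the shares of all genes given above. Genes with higher levels made up 65.4% of the calls over lyz-rich and 18.9% over lyz-low barcodes. These shares came to 54.4% and 24.2% with lyz left out of the totals, and to 43.4% and 47.8% with scaling by the median of ratios.

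Depth differed between the groups, so the comparison was repeated with barcodes of 1500 to 3500 UMIs, of which there were 826 intermediate, 221 lyz-rich and 4541 lyz-low ones. The counts higher and lower than in lyz-rich barcodes then came to 524 and 471, and 6 genes were higher than in both groups. The log2 ratio over lyz-rich barcodes was 1.38 for ved, 0.94 for ptgdsb.1, 0.98 for gapdh and 0.48 for rgs12b, so that rgs12b was no longer called. Those of the genes described below that lost a call over lyz-rich barcodes at this depth included cnksr2b (0.17), tgfbi (0.08), socs1a (0.13), slc2a3b (0.36) and atf3 (0.48), and the ER chaperones hyou1 (0.34) and hspa5 (0.52) lost theirs over lyz-low barcodes.

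**Figure D3:**
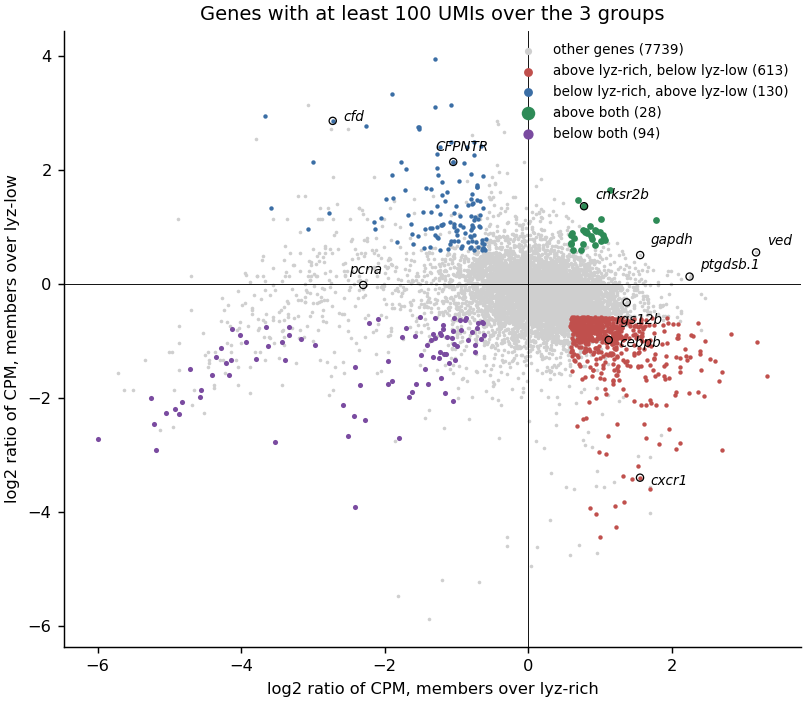
Log2 ratios of CPM for the 8604 genes compared, intermediate barcodes over lyz-rich (x axis) and over lyz-low barcodes (y axis), limited to 6 in either direction (genes without a UMI in one of the groups have no ratio and no point). Red and blue points are genes called in opposite directions against the comparison groups (613 and 130), green and violet points those called above (28) or below (94) both, and circles mark named genes.

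A first set of genes was lower than in lyz-rich and higher than in lyz-low barcodes. Cfd, complement factor D, stood at 277 CPM (259 to 296) in intermediate barcodes, 1829.9 CPM in lyz-rich and 38.2 CPM in lyz-low barcodes, and was called against both (log2 ratios -2.72 and 2.86). Within the window it went from 153 CPM at 3% to under 4% lyz to 448 CPM at 5% to under 6%. Barcodes with hmgn2 from 0.5% to under 1.5%, whose median lyz was 5.16%, had 769 CPM of cfd, and their part in this rise was not tested. Ckbb, the brain-type creatine kinase, had 17.2 CPM, 219 CPM and 2.25 CPM in the same order of groups, and olfm2a, a secreted olfactomedin protein, 9.85, 36.6 and 0.984 CPM. Ryr3, a calcium release channel, was between the groups as well (31.4, 77.2 and 3.65 CPM). Bcat1, a branched-chain amino acid transaminase, had 4 UMIs in intermediate barcodes (1.23 CPM), 8.17 CPM in lyz-rich and 0 UMIs in lyz-low barcodes. These 5 genes had the same order of levels when the comparison groups were held to the exclusion of the 7 genes.

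Genes in the other direction had their lowest levels in lyz-rich barcodes. Cebpb, which encodes C/EBP-beta, stood at 3606 CPM (3541 to 3672), compared with 1655 CPM in lyz-rich and 7137 CPM in lyz-low barcodes (log2 ratios 1.12 and -0.98). Cxcr1, a receptor for CXCL8 that guides neutrophils to wounds, stood at 23.4 CPM (18.4 to 29.3), 7.93 and 247 CPM, so that it was nearer to the lyz-rich barcodes. Anxa1a, a member of the annexin A1 genes that regulate inflammation, had 81.9, 26.1 and 357 CPM. Mxi1, an antagonist of Myc, had 73.2, 19.6 and 198 CPM. Among the highest ratios over lyz-rich barcodes were those of genes with low levels, such as timp4.3, a tissue inhibitor of metalloproteinases, at 5.23 CPM (log2 ratio 3.33, 2.15 to 4.57), rnf144ab, a ubiquitin ligase, at 19.4 CPM (3.19), and crhr1, a receptor of corticotropin-releasing hormone, at 12.001 CPM (2.67). These 3 were lower than in lyz-low barcodes.

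Granule genes showed no common direction. Of 19 compared, 5 were called higher and 1 lower than in lyz-rich barcodes (23% and 12.1% of all genes). Over lyz-low barcodes 4 were higher and 7 lower (3.84% and 16.5% of all genes). The medians were 0.32 and -0.29. Cfd was the one lower than in lyz-rich barcodes. Npsn, an astacin-type protease of zebrafish neutrophils, stood at 7649 CPM, 8678 in lyz-rich and 3344 in lyz-low barcodes, and lect2l had the same order, both with log2 ratios of about 1 over lyz-low barcodes (1.19 and 1.06). Pglyrp5, a peptidoglycan recognition protein, was higher than in lyz-rich and lower than in lyz-low barcodes (10.2, 4.20 and 32.7 CPM).

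Of the 7 subunits and partners of the NADPH oxidase, which makes superoxide, 2 were higher than in lyz-rich barcodes and none lower. Over lyz-low barcodes 1 was higher and 2 were lower. Of all genes, 23% were higher than in lyz-rich barcodes, and 3.84% were higher and 16.5% lower than in lyz-low barcodes. The membrane subunit cybb stood at 329.9 CPM, 180.2 and 461 CPM (log2 ratios 0.87 and -0.48), and hvcn1, the proton channel, at 22.8, 10.6 and 46.7 CPM. The cytosolic subunit ncf1 was lower than in lyz-low barcodes (3056 against 5099 CPM), with a log2 ratio of -0.74 that came to -0.34, and was not called, under the exclusion.

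Among 16 genes of the eicosanoid pathway, to which ptgdsb.1 belongs, 8 were higher than in lyz-rich barcodes and 1 lower, with a median of 0.54. Of all genes 23% were higher and 12.1% lower than in lyz-rich barcodes, and 3.84% higher and 16.5% lower than in lyz-low barcodes. Ltb4r, a receptor of leukotriene B4, stood at 329 CPM, 175 in lyz-rich and 408 in lyz-low barcodes. Ptgs1, a cyclooxygenase, was the one with the lower level (4.62 against 14.9 CPM). Hpgd, which inactivates prostaglandins, was the one higher than in lyz-low barcodes (358 against 152 CPM), while 3 were lower than there. Alox5ap, which presents arachidonate to 5-lipoxygenase, had 1486, 1090.5 and 1372 CPM and was called against neither group.

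Glycolysis and glycogen genes included gapdh. Of 23 glycolysis genes 7 were higher than in lyz-rich barcodes (23% of all genes) and none lower, with a median of 0.32. None were higher than in lyz-low barcodes and 4 were lower, near the share of 16.5% over all genes. Slc2a3b, a glucose transporter, stood at 115 CPM, 56.1 and 234 CPM, and gapdhs, the more abundant paralog of gapdh, at 2723, 2182 and 3035 CPM with a log2 ratio of 0.32 over lyz-rich barcodes, which was not called. Of 9 glycogen genes 4 were higher than in lyz-rich barcodes, among them gyg1a, the primer of glycogen synthesis (113 against 58.9 CPM).

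Of 12 genes of RGS proteins and inhibitory G proteins, the list that holds rgs12b, 7 were higher than in lyz-rich barcodes and none lower, and 1, rgs2, was lower than in lyz-low barcodes (205 CPM, 81.2 in lyz-rich and 396 in lyz-low). The median was 0.66 over lyz-rich and -0.36 over lyz-low barcodes. Of all genes 23% were higher than in lyz-rich and 16.5% lower than in lyz-low barcodes. Of 8 genes of chemotaxis and marrow retention 6 were higher than in lyz-rich barcodes and 4 lower than in lyz-low barcodes, with medians of 0.89 and -0.67. Cxcr4b, the receptor that retains neutrophils in the marrow of mammals, stood at 3806 CPM, 2258 in lyz-rich and 3691 in lyz-low barcodes. Itgb2, the beta subunit of leukocyte integrins, had 385, 223 and 565 CPM, and csf3r, the receptor of G-CSF, 60.9, 30.6 and 105 CPM.

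Of 24 myeloid transcription factors, 11 were higher and 2 lower than in lyz-rich barcodes (23% and 12.1% of all genes). Over lyz-low barcodes 2 were higher and 10 lower (3.84% and 16.5% of all genes). Spi1b, which encodes PU.1, had 1955 CPM, 1062 in lyz-rich and 2419 in lyz-low barcodes, and cebpa 2272, 1627 and 2414 CPM without a call. The 2 lower than in lyz-rich barcodes were the Myc genes myca (12.9 against 42.1 CPM) and mycb (7.08 against 19.6 CPM). In WKM myca stood at 14.6 CPM under the same rule and 16.1 CPM in lyz-rich barcodes, without a call. Mycb stood at 8.75 and 7.76 CPM there, with too few UMIs to be compared.

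Inflammatory genes were mostly between the groups. Of 9 compared, 7 were higher than in lyz-rich barcodes and 8 lower than in lyz-low barcodes, with medians of 0.71 and -1.14, the latter of which came to -0.22 under the exclusion. Il1b, a cytokine, stood at 831 CPM, 529 in lyz-rich and 2129 in lyz-low barcodes, but at 916 CPM in lyz-low barcodes held to the exclusion, over which it was not called (log2 ratio -0.14). Socs1a, an inhibitor of cytokine signaling, was the one gene of the list higher than in both groups (126, 65.8 and 65.2 CPM), and was called against neither group under the exclusion (log2 ratios 0.36 and 0.52). Among 19 AP-1 and immediate early genes, 4 were higher and 5 lower than in lyz-rich barcodes (23% and 12.1% of all genes). None were higher and 9 lower than in lyz-low barcodes (3.84% and 16.5% of all genes). The medians were 0.17 and -0.58. Atf3 was higher (1009 against 473 CPM), and fosb (13.8 against 47.9 CPM) and egr1 (27.4 against 62.4 CPM) were lower. Over lyz-low barcodes egr1 had a log2 ratio of -0.51, which turned to 1.27 and a call under the exclusion. Il1b, atf3 and others of these lists respond to handling of cells in many tissues, and il1b stood at 196 CPM in WKM barcodes under the same rule. The part of the sort in these levels was not tested.

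Genes of the secretory pathway had the opposite order. Of 33 genes of ER folding and secretion, 19 were lower than in lyz-rich barcodes and 1 higher, 17 were higher than in lyz-low barcodes and none lower, and 14 were called in both comparisons. The medians were -0.72 and 0.62, and -0.64 and 0.84 under the exclusion. Hyou1, a chaperone of the ER, stood at 26.5 CPM (21.2 to 32.7), 62.2 in lyz-rich and 11.3 in lyz-low barcodes, and calr, calreticulin, at 19.08, 32.3 and 4.01 CPM. Hspa5, which encodes BiP and was taken up after its values had been seen, had 222, 372 and 98.9 CPM. The one higher than in lyz-rich barcodes was atf4b, a transcription factor of the stress response (797 against 472 CPM). Of the antioxidant genes, prdx1 followed this order (376, 645 and 143 CPM), and gstp1 was higher than in lyz-rich barcodes (814 against 396 CPM).

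Ribosomal protein genes and mitochondrially encoded genes had medians of opposite sign. The median of 91 cytosolic ribosomal protein genes was -0.35 over lyz-rich and 0.32 over lyz-low barcodes. Of these genes 9 were lower and 3 higher than in lyz-rich barcodes (12.1% and 23% of all genes). They summed to 172980 CPM in intermediate, 218705 in lyz-rich and 137146 in lyz-low barcodes. Of 13 mitochondrially encoded genes 5 were higher than in lyz-rich and 5 lower than in lyz-low barcodes (23% and 16.5% of all genes). Their medians were 0.58 and -0.53, and mt-co1 had 1729, 1064 and 3188 CPM. Of 86 nuclear genes of the respiratory chain, 1 was called in each direction in either comparison. Of 44 proteasome genes 7 were lower than in lyz-rich barcodes, near the share of 12.1% over all genes, and none were called over lyz-low barcodes. Their median over lyz-rich barcodes was -0.27, and 0.005 under the exclusion.

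Of 35 actin and motility genes, 9 were higher than in lyz-rich barcodes, near the share of 23% over all genes, and none were lower. None were higher and 2 lower than in lyz-low barcodes (3.84% and 16.5% of all genes). Actb2, a beta-actin gene, stood at 64076 CPM, 34483 in lyz-rich and 63130 in lyz-low barcodes, and cfl1l, a cofilin that severs actin filaments, at 1541, 664 and 1513 CPM. For both genes the intermediate and lyz-low levels were nearly equal, with log2 ratios of 0.02 (0.01 to 0.03) and 0.03 (-0.02 to 0.07). Cxcr4b, itself called over lyz-rich barcodes, had a ratio of 0.04 over lyz-low barcodes (0.02 to 0.07), and icn, an S100 protein, one of 0.03 (12873 and 12639 CPM). These ratios are over lyz-low barcodes not held to the exclusion. The list of chemotaxis and retention, which holds cxcr4b, summed to 4331 CPM in intermediate and 4718 CPM in lyz-low barcodes, but to 5554 CPM in lyz-low barcodes held to it.

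**Figure D4:**
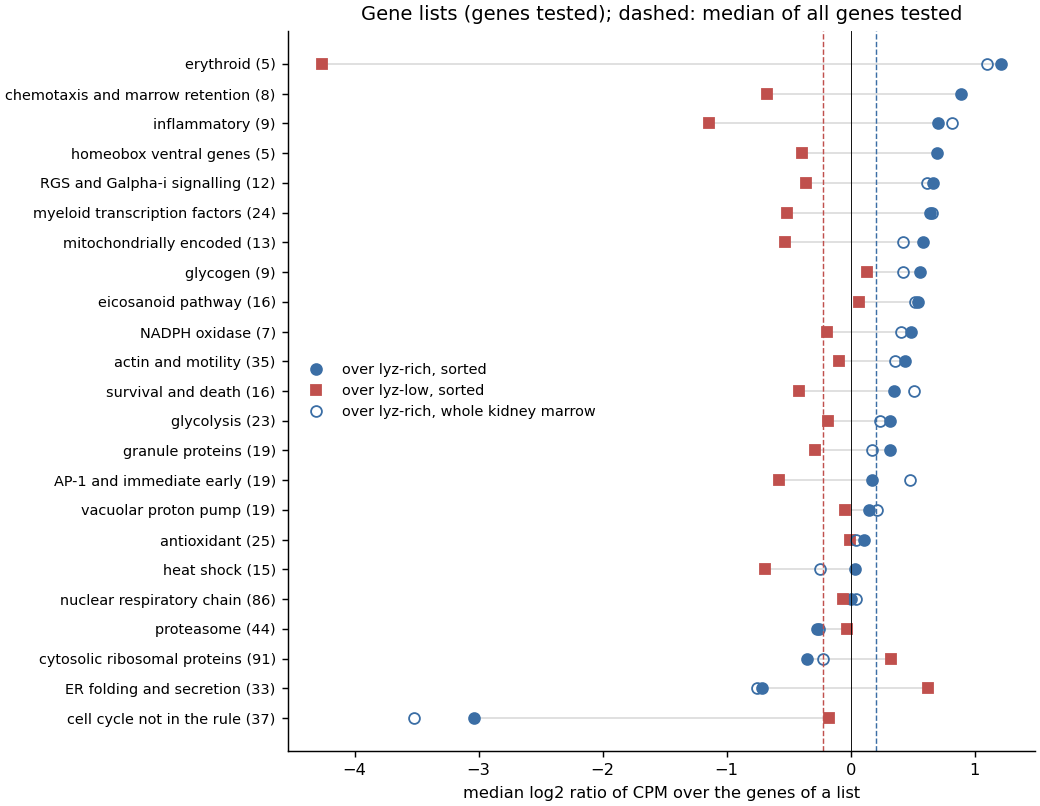
Median log2 ratio of CPM over the genes of each list that passed the count minimum (number in brackets), for sorted intermediate over lyz-rich (filled circles) and lyz-low barcodes (squares), and for WKM barcodes under the same rule over lyz-rich ones (open circles). Dashed lines are the medians of all genes compared, 0.20 over lyz-rich and -0.22 over lyz-low barcodes. Of the lists shown, cell cycle genes have the lowest median over lyz-rich barcodes and ER folding genes the highest over lyz-low barcodes.

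Of 16 genes of survival and cell death 5 were higher and 1 lower than in lyz-rich barcodes, and 5 were lower than in lyz-low barcodes. Of 15 heat shock genes 4 were higher and 2 lower than in lyz-rich barcodes. None were higher and 9 lower than in lyz-low barcodes, with a median of -0.69 that turned to 0.65 under the exclusion. For all genes the shares were 23% higher and 12.1% lower than in lyz-rich, and 3.84% higher and 16.5% lower than in lyz-low barcodes. Cell cycle genes outside the rule were lower than in lyz-rich barcodes in 35 of 37, with a median of -3.04, as the choice of barcodes without UMIs of 6 cell cycle genes would set. Over lyz-rich barcodes held to the same exclusion the median was 0.40. Pcna, a replication factor taken up after its values had been seen, stood at 126 CPM in intermediate and 618 CPM in lyz-rich barcodes, but at 104 CPM in those held to the exclusion. Aurka, a mitotic kinase, had 3 UMIs in intermediate barcodes (0.923 CPM).

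The study had grouped genes by their course over maturation into an early (M1), a middle (M2) and a late module (M3). As these modules were derived from these cells, they are no independent evidence. Of 502 M3 genes, 351 were higher than in lyz-rich barcodes and 1 lower, and 278 were lower than in lyz-low barcodes and 1 higher, with medians of 0.80 and -0.66. Of 570 M1 genes 215 were lower and 2 higher than in lyz-rich barcodes, and 80 were higher and 14 lower than in lyz-low barcodes (medians -0.40 and 0.10). Under the exclusion the medians came to -0.07 and 0.15 for M1 and to 0.71 and -0.55 for M3. Of 407 M2 genes 27 were higher and 50 lower than in lyz-rich barcodes, 38 were higher and 12 lower than in lyz-low barcodes, and 5 were higher and 10 lower than in both. No M1 or M3 gene was higher than in both.

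Few genes were called in the same direction against both groups. In all, 28 genes (0.325%) were called higher and 94 (1.09%) lower than in both comparison groups. The 28 had between 5.54 and 247.1 CPM. Cnksr2b, a scaffold of Ras signaling, stood at 247 CPM (230.3 to 265), 144 in lyz-rich and 96.3 in lyz-low barcodes, and maptb, which encodes a microtubule-associated tau protein, at 194, 110.3 and 102 CPM. Tgfbi, a protein of the extracellular matrix, had 64.3, 37.1 and 34.2 CPM, s100z, a calcium-binding protein, 32.0, 17.2 and 18.6 CPM, and opcml, a cell adhesion protein, 12.9, 5.85 and 4.15 CPM. Adora2aa, an adenosine receptor, had 22 UMIs in intermediate barcodes (6.77 CPM).

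With both comparison groups held to the exclusion of the 7 genes, 35 genes (0.407%) were higher and 21 (0.244%) lower than in both, and none of the 28 was among the 35. Of the 28, 25 kept positive ratios over both groups, 7 were still called over lyz-rich and 6 over lyz-low barcodes. Cnksr2b was called over lyz-low (log2 ratio 0.90) but not over lyz-rich barcodes (0.36), and maptb over neither (0.55 and 0.53). In bands of lyz among barcodes without UMIs of the 7 genes, cnksr2b went from 74.1 CPM under 0.5% lyz to 270.4 CPM at 3% to under 4%, and back to 197 CPM at 10% to under 12%. S100z had 37.6 CPM at 1% to under 2%, 29.9 CPM at 4% to under 5% and 28.5 CPM at 10% to under 12%. Of the 94 lower genes, 6 were also lower than in both groups under the exclusion. Among the 94 were fosl1a, a member of AP-1 (8.31, 13.6 and 14.2 CPM), and bcl2l10, an inhibitor of apoptosis with 2 UMIs in intermediate barcodes.

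The intermediate barcodes were not uniform. After thinning to 1000 UMIs, the variance over mean of 1064 genes across 1188 barcodes had a median of 1.03, near the value of 1 that counting alone gives, and was over 2 for 14 genes. It was highest for hmgn2, a nucleosome-binding protein (13.9), followed by actb2 (6.81), ved (5.54), lect2l (4.39), icn (3.98) and h1-10, a linker histone (3.58). Il1b reached 2.43 and nfkbiab, an inhibitor of NF-kappaB, 2.37. The mean of hmgn2 was 5.08 UMIs per barcode, that of actb2 66.0, that of lect2l 50.6 and that of ved 0.133. At a given relative spread this measure rises with the mean, so that abundant genes such as actb2 and lect2l rank high in it.

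Hmgn2 spread over a wide range, and the levels below are a description, since hmgn2 was chosen on these barcodes. With edges set after its values had been seen, 910 barcodes (75.7%) had hmgn2 under 0.5% of UMIs, 192 (15.97%) from 0.5% to under 1.5%, and 100 (8.32%) at 1.5% or more. Near the lower edge 117 barcodes lay from 0.25% to under 0.5%, 40 from 0.5% to under 0.75% and 66 from 0.75% to under 1%. Near the upper edge 36 lay from 1.25% to under 1.5%, 7 from 1.5% to under 1.75%, 8 in the next step of 0.25% and 14 in that after it, so that both edges stood near low points between higher counts. The excluded window barcodes had a second peak, with 645 from 0.75% to under 1% compared with 167 from 0.25% to under 0.5%. The upper range held 14.3% of lyz-rich and 1.26% of lyz-low barcodes, and 6.26% of the 607 WKM barcodes under the same rule. The middle range held 59.8% of the 3026 window barcodes that had been excluded for UMIs of the 7 genes, but only 2.64% of the WKM barcodes under the rule.

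H1-10, which was among the most variable genes, had higher levels at higher hmgn2 in both libraries. It stood at 1329 CPM under 0.5%, 2411 CPM in the middle range and 6446 CPM at 1.5% hmgn2 or more, and at 1164, 2781 and 6701 CPM in WKM. H2az2b, a histone variant, went from 189 to 1198 CPM between the outer ranges (169.5, 720.5 and 1453 CPM in WKM), and hmgb2b, a chromatin protein, from 52.3 to 479 CPM (62.7, 507 and 627 CPM in WKM). H2az2b and hmgb2b were taken up after their values had been seen. The replication factor pcna did not follow this order, with 109.9, 242 and 93.0 CPM. The cell cycle genes outside the rule summed to 2289 CPM in the lower, 4706 in the middle and 3200 in the upper range. In WKM these sums were 1866, 2499 and 3279 CPM. The 33 genes of ER folding and secretion summed to 6482 CPM in the lower, 7464 in the middle and 7607 in the upper range, and to 4876, 7205 and 5447 CPM in WKM, where the middle range held only 16 barcodes. Of these genes hspa5 stood at 152, 342 and 569.6 CPM in the sorted ranges, but at 55.4, 653 and 238 CPM in WKM, with its highest level in the middle range. Prdx1 went from 298 to 691 CPM and ckbb from 3.24 to 79.0 CPM.

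Ved and gapdh had lower levels in the upper than in the lower range of hmgn2 in both libraries. Ved stood at 150.1 CPM under 0.5% hmgn2, 25.6 CPM in the middle range and 2.82 CPM (1 UMI) in the upper range, and at 127 and 7.94 CPM in the outer ranges of WKM. Gapdh went from 844 to 226 CPM (937 to 222 CPM in WKM), and ptgdsb.1 from 222 to 132 CPM. In WKM ptgdsb.1 stood at 250.2 CPM (225.5 to 276.8) and 175 CPM (109.5 to 264.5), and rgs12b at 18.7 and 15.9 CPM (2 UMIs), with overlapping intervals for both, while rgs12b went from 45.4 to 11.3 CPM (4 UMIs) in the sorted ranges. Mkrn1, a ubiquitin ligase taken up after its values had been seen, went from 181 to 31.0 CPM. Actb2 had 70360 CPM in the lower and 40880 CPM in the upper range. All 20 barcodes with 5 or more UMIs of ved, and all 9 such barcodes of WKM, had hmgn2 under 0.5%. Cebpb had 3444, 4266 and 3936 CPM.

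The median lyz of the ranges was 4.11%, 5.16% and 4.59%, and their median depth 2535, 1881 and 3640 UMIs, so that the upper range held the deeper barcodes. Scrublet called 100 (10.99%), 18 (9.38%) and 2 (2.00%) of them as doublets. The middle range, with the lowest depth, had the highest levels of cfd (769 CPM, with 207 and 169 in the outer ranges), il1b (1591, with 729 and 620.3), cxcr1 (76.9, with 16.6 and 5.64) and the erythroid gene hbaa1 (58.2, with 14.6 and 16.9). Genes that are otherwise high in lyz-rich (cfd) and in lyz-low barcodes (il1b, cxcr1, hbaa1) thus had their highest levels in the same sorted range. In WKM, where the middle range held 16 barcodes at a median of 3309.5 UMIs, cfd was highest there as well (1283 CPM, with 161 and 214 in the outer ranges). Il1b (180 CPM, with 185 and 341), cxcr1 (0 UMIs) and hbaa1 (9130 CPM, with 20260 and 12510) were not. The average of all sorted barcodes was 0.607% of UMIs for hmgn2, which lies in the middle range, and 6.43% for lyz, which lies above the window. The part of free RNA in these barcodes was not tested.

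**Figure D5:**
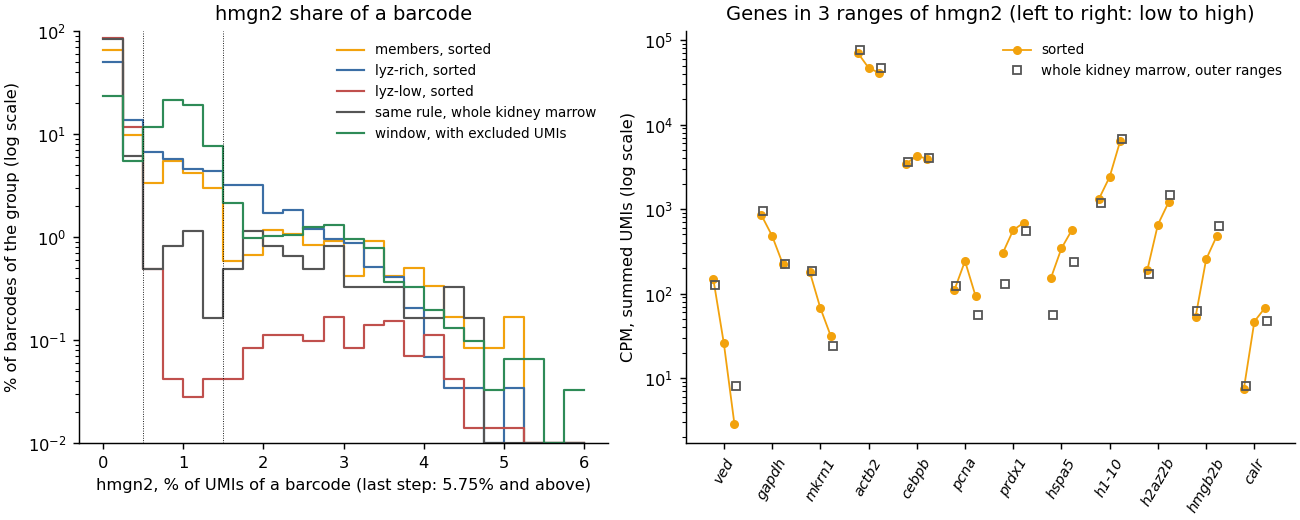
Left, share of barcodes (log scale) by the share of hmgn2 in their UMIs for intermediate (members), lyz-rich and lyz-low sorted barcodes, WKM barcodes under the same rule and sorted window barcodes with UMIs of the 7 excluded genes; dotted lines are the edges of 0.5% and 1.5%. Right, CPM (log scale) of 12 genes in the 3 ranges of hmgn2 among sorted intermediate barcodes (joined points) and in the outer ranges of WKM (squares). Among the sorted barcodes, from the lower to the upper range, ved, gapdh, mkrn1 and actb2 fall, and the histone and ER genes rise.

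The same rule was applied to WKM, a library that did not enter the choice, although it came from the same fish. It found 607 barcodes with a median of 2537 UMIs, compared with 1311 lyz-rich barcodes in that library. Of 4980 genes compared there, 1038 (20.8%) were higher and 556 (11.2%) lower than in lyz-rich barcodes, and the median log2 ratio was 0.18. Of 4951 genes compared in both libraries, 1143 were higher in the sorted comparison, and 774 of these (67.7%) were also higher in WKM, where they made up 76.3% of the higher calls among these genes. Of 652 lower genes 452 (69.3%) were lower in WKM as well, 81.7% of the lower calls there. Only 3 genes were called in opposite directions. The lyz-rich barcodes of these comparisons were not held to the exclusion in either library, so the rule would set some shared lower calls. Cell cycle genes outside the rule were lower in 35 of 37 in the sorted library and in 30 of 32 in WKM. With sorted comparison groups held to the exclusion, the count lower than in lyz-rich barcodes went from 1045 to 283. The overlap of the libraries under the exclusion was not tested.

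Of the 4 markers, 3 had enough UMIs to be compared in WKM, and these 3 were higher than in lyz-rich barcodes there as well. Ved stood at 112 CPM (96.8 to 129) in WKM barcodes under the rule and 14.3 CPM in lyz-rich ones, gapdh at 840.3 and 270.3 CPM, and ptgdsb.1 at 233 and 62.5 CPM. Rgs12b, which had too few UMIs to be compared in WKM, had 17.5 CPM and 8.11 CPM, below its sorted levels in both groups. The log2 ratio of cfd was -3.03 and that of cebpb 1.16, with 3581 and 1599 CPM. Of the 31 ER folding genes compared in WKM, 20 were lower and none higher (median -0.76), and of 446 M3 genes 280 were higher and 3 lower. Of the 28 genes higher than in both sorted groups, 11 had enough UMIs in WKM, and 6 of these were higher there than in lyz-rich barcodes, among them maptb (log2 ratio 0.94), tgfbi (0.64) and s100z (1.09), while cnksr2b had a ratio of 0.52 without a call. Globin made up 4.28% of the UMIs of the WKM barcodes and 0.00483% of those of the sorted ones, and its part in the WKM levels was not tested.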

How the data were processed

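Cells of 2 fish were profiled in 2 libraries with the Single Cell 3′ chemistry of 10x Genomics, and MULTI-seq barcodes marked the sorted populations. The authors aligned the reads with Cell Ranger 3.1.0 to the GRCz11 transcriptome extended by both reporters, and deposited UMI counts, not normalized, for each feature and each barcode called as a cell. Features are named as in the files. Names that occur more than once were kept apart by gene ID, and counts of near-identical copies may be split between them. Cells were not demultiplexed, and Seurat 4.0.2, named in the submitters' processing notes, was not used.

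Members were found by the rule with Python 3.11.15, numpy 2.4.6, scipy 1.17.1 and pandas 2.3.3. Members, markers and gene lists were chosen with earlier results of these data known. Counts were summed per group and divided by all UMIs of the group (CPM). For each CPM the exact Poisson interval was taken, for each ratio the interval of the binomial share that 1 group has in the summed count, and for shares of barcodes that of Clopper and Pearson, all at 95%. Genes were compared (in the figures, tested) with at least 100 UMIs over the 3 groups and called past 1.5-fold where the interval left out 1. At the depth of the intermediate barcodes 3 counts correspond to 0.923 CPM, at that of lyz-rich barcodes to 0.142 CPM and at that of lyz-low barcodes to 0.211 CPM. UMIs of 1 barcode are not independent of its cell, so intervals are too narrow for differences between cells.

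Named genes were the given markers, the 10 largest and 10 smallest ratios in each comparison, the 15 genes with the largest smaller ratio and the 10 with the smallest larger ratio over both groups, the 10 most variable genes (mean of at least 0.1 UMI), and from each list the 4 most abundant members, the 3 with the largest ratio against each group and all called in the same direction against both; not all of them are described. Variance over mean and shares of barcodes with a UMI were computed after thinning each barcode to 1000 UMIs. Scrublet (scanpy 1.11.5, expected rate 10%) was run for an alternative. The calculations were tested on simulated data. Alternatives covered comparison groups without UMIs of the 7 genes, scaling, thinning, doublets, the window, the limits on features and depth, the count minimum and the fold. Restriction to barcodes with hmgn2 under 0.5% was chosen after seeing the data. The result of 1 gene of the lists is not reported here. No value of the study's own comparisons was used, and only the gene names of its modules were taken from its supplementary data.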

Additional observations from a re-analysis of the deposited data

Results flagged for a closer look

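Of the 4951 genes compared in both libraries, 3 were called in opposite directions over lyz-rich barcodes, and they were taken up after their values had been seen. The difference between the libraries was not tested. Kptn, an actin-binding protein, had a log2 ratio of 0.60 in the sorted library, with 24.3 CPM in intermediate and 16.1 CPM in lyz-rich barcodes, and of -0.70 in WKM, with 11.7 and 19.0 CPM. It was also 1 of the 28 genes higher than in both sorted groups. BX323596.1 had a ratio of -2.32 in the sorted library (9 UMIs in intermediate barcodes, 2.77 against 13.8 CPM) and of 1.42 in WKM (26.8 against 10.0 CPM). Impdh2, an enzyme of guanine nucleotide synthesis, had a ratio of -2.17 in the sorted library (8 UMIs in intermediate barcodes, 2.46 against 11.05 CPM) and of 0.85 in WKM (18.1 against 10.0 CPM).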

How the results depend on the processing

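No paired analysis was possible because the files used here hold no MULTI-seq assignment of barcodes to a fish. The counts of genes higher than in lyz-rich, lower than in lyz-rich, higher than in lyz-low and lower than in lyz-low barcodes (1978, 1045, 330 and 1419) came to 1307, 517, 190 and 797 with a minimum of 500 UMIs, which left 4911 genes, and to 713, 696, 152 and 530 with a fold of 2. Scaling by the median of ratios gave 1147 higher than in lyz-rich barcodes, and 651 higher and 710 lower than in lyz-low barcodes. Among barcodes of 1500 to 3500 UMIs (826 intermediate, 221 lyz-rich and 4541 lyz-low), 524 were higher and 471 lower than in lyz-rich barcodes. The count lower than in lyz-rich barcodes was 283 with comparison groups held to the exclusion of the 7 genes and 691 after thinning. The 28 genes higher than in both became 45 with a minimum of 800 features, 6 at 1500 to 3500 UMIs, 9 with a minimum of 500 UMIs, 3 with a fold of 2 and 48 among barcodes with hmgn2 under 0.5%. The 94 lower than in both became 21 under the exclusion, 62 with the median of ratios, 48 after thinning, 33 at 1500 to 3500 UMIs, 52 with a minimum of 500 UMIs, 55 with a fold of 2 and 163 among barcodes with hmgn2 under 0.5%. All other counts moved by less than 1.5 times. The causes of these changes were not tested, apart from the fewer genes or barcodes that some alternatives leave.

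Of 1332 ratios of the 75 genes over all alternatives, 790 moved by less than their counting interval, 498 moved further with the same sign, 4 called ratios turned, and the remainder, which were not called, changed sign. Under the exclusion the ratio of bcl2l10 over lyz-low barcodes became 0.52 and that of pcna over lyz-rich 0.27. The ratio of hbaa1 over lyz-rich barcodes became -0.13 at 1500 to 3500 UMIs, and that of hmgn2 over lyz-low barcodes -0.56 among barcodes with hmgn2 under 0.5%. With 3249642 UMIs, levels under 0.923 CPM could not be told from 0 in intermediate barcodes.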
